A study of Mus musculus with 12 samples.

Results

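Cells of the Mif knockout (KO) lines numbered 19 and 24 were followed over the 4 days of the deposited hashtag sheet, 0, 6, 10 and 16. The Mif protein, or macrophage migration inhibitory factor, is a cytokine that cells secrete. A hashtag is an antibody carrying a DNA barcode, which marks the cells of a sample before samples are pooled. Barcodes were kept with at least 300 genes, at most 15% mitochondrial UMIs (unique molecular identifiers, the counted molecules), and a top hashtag with at least 20 counts and at least 3 times the next. Non-immune cells were then gated as those with no UMI of Ptprc (CD45, on blood cells), Cd3e (T cells) or Pecam1 (endothelium) and at most 1 UMI of Tyrobp (myeloid and natural killer cells). The gate left 26257 cells, of 163866 barcodes that passed the cell filter in all 6 libraries. The UMIs of the gated cells of each hashtag were added up, which gave 8 sums for line 19 (13469 cells) and 7 sums for line 24 (12788 cells). Line 19 had 1295 cells at day 0, 4549 at day 6, 4248 at day 10 and 3377 at day 16. Line 24 had 2809 cells at day 0, 410 at day 6, 4851 at day 10 and 4718 at day 16. Letter B of line 24 at day 6 had 7281 hashtag counts and no cell, so day 6 rested on 3 sums and each other day on 4.

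The series profiled mouse tumours of SCC35 cell lines, labelled Mif KO (lines 19 and 24) or Mif KO control (lines 15 and 18), and wild type (WT) tumours in 1 of the mixed libraries. Tumours were dissociated, hashed and sorted for live cells, and 5′ single-cell libraries were made, with 1 library for each line and 2 mixed libraries. In the sums of lines 19 and 24, line and library are the same. The labels do not say how Mif was deleted, whether a line is 1 clone, which mice received the cells, what the day 0 sample was, or whether hashtags are separate animals. Days 6, 10 and 16 are called the tumour days here. The p-values measure the spread between these sums, which may be technical. A lower sum can come from fewer cells of a type or from less RNA per cell, and these cannot be told apart.

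Cells that divide raise the genes of DNA replication before S phase, which E2F factors drive, and the genes of mitosis in G2 and M. NF-κB, a factor switched on by inflammatory signals, drives chemokine genes and its own inhibitor IκBα, encoded by Nfkbia. ATF4, the factor of the integrated stress response, drives genes for amino acid supply and stress such as Trib3, Chac1 and Asns. The unfolded protein response raises the chaperones of the endoplasmic reticulum. All of these are known to shift when cancer cells move between conditions of growth.

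Promoter stretches are shown for genes of the groups that moved together. RefSeq promoter windows (GRCm38.p6, 250 bases before to 50 after each start, 27025 genes) were searched on both strands for 8 short motifs, and capitals mark the matches. The NF-κB motif (GGG, any 2 bases, then TTTCC) was in 1.89% of genes, TGATGNAA (ATF4) in 4.51% and TTTGGCGC (E2F) in 0.585%. Both chemokine stretches lie on the plus strand, at chr5:90891106-90891233 and chr5:90903752-90903880. That of Nfkbia lies at chr12:55492648-55492726 (minus strand), that of Chac1 at chr2:119350999-119351106 (plus), that of Asns at chr6:7693210-7693282 (minus), that of Mcm5 at chr8:75109310-75109417 (plus) and that of Mcm6 at chr1:128359706-128359865 (minus). All 7 lie upstream of the gene's start.
Cxcl1: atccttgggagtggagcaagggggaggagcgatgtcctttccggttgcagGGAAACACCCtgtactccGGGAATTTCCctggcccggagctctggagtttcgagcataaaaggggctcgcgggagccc
Cxcl2: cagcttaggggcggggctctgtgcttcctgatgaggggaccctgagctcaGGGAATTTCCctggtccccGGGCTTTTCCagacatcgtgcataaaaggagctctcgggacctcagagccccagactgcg
Nfkbia: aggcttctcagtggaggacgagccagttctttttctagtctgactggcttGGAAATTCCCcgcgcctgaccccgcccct
Chac1: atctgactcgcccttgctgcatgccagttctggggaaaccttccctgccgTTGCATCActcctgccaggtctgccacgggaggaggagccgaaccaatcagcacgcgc
Asns: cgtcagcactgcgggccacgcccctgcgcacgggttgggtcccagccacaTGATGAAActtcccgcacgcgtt
Mcm5: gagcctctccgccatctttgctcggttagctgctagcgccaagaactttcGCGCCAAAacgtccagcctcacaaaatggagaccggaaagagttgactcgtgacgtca
Mcm6: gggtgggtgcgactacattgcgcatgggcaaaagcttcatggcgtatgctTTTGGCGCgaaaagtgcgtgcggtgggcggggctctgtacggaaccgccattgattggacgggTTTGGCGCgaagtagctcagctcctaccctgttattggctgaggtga
The NF-κB letters were in 4 of the 12 chemokine and cytokine genes that have a window (Cxcl1, Cxcl2, Il6 and Csf1). The ATF4 letters were in 6 of 16 genes of the integrated stress response list, and the E2F letters in 5 of 18 S phase genes. Of the other motifs, TGCGCNCG (metal response) was in both metallothionein windows, Mt1 and Mt2, against 6.12% of genes. The interferon motif (TTTC, any 2 bases, TTTC) was in 12 of 20 interferon genes, against 3.99%. TTTGAA (cell cycle homology region) was in 12 of 16 G2/M genes, against 20.2%, and ACGTG (hypoxia) in 10 of 13 hypoxia genes, against 21.8%. A single form of the serum response motif (CC, ATATTA, then GG) was in none of the 13 immediate early genes with a window, against 0.0777% of genes, so that a search for it in so few windows tells nothing of them. A match is a description of letters in a window, not of binding.

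The sums held 137 to 4002 cells and 1675977 to 34445901 UMIs, the smallest being letter A of line 19 at day 0. The median UMI count of a gated cell was 8524.5 to 11821 in line 19 and 2819.5 to 6700.5 in line 24. Mitochondrial UMIs were 3.11% to 3.28% of gated UMIs at day 0 and 2.02% to 2.48% in the tumour days. Cells with a Ptprc UMI, which the gate leaves out, were 0.681% to 2.90% of assigned cells at day 0 and 6.35% to 33.1% in the tumour days. Levels are given in CPM, the UMIs of a gene per 1000000 UMIs of its sum, after a scaling between sums. Summed macrophage markers in the gated sums ran from 34.3 to 57.1 CPM at day 0 and from 21.3 to 346 CPM in the tumour days. The 2 KO libraries shared 1251 barcodes, 4.81% of those of line 19. In the first principal component (43.6% of the variance) every sum of line 19 was below every sum of line 24, and the next (31.2%) held the day 0 sums of each line above all its tumour sums. The series title speaks of melanoma, yet only 3 of the 10 melanocyte genes listed were abundant enough to test. Tyr, the enzyme of melanin synthesis, had 0 UMIs in all 15 sums.

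Mif was lower in the KO lines than in the control lines at every day. Within the KO lines its level in the gated sums rose from day 0 to the tumour days. In line 19 it was at 36.5 and 44.4 CPM at day 0, at 100 and 92.6 CPM at day 6, at 77.3 and 83.7 CPM at day 10, and at 90.3 and 91.8 CPM at day 16. Line 24 had it at 201 and 207 CPM at day 0, at 360 CPM at day 6, at 484 and 411 CPM at day 10, and at 443 and 391 CPM at day 16. Within each line the day 0 sums lay below all tumour sums, and every sum of line 24 lay above every sum of line 19. Over both lines Mif rose by 1.06 on the log2 scale (SE 0.09, edgeR adjusted p 9.1e-08), and without cells holding a stromal marker UMI it was 0.79. Control sums held 1870 to 3061 CPM of Mif, and the KO step exceeded theirs by 1.37 (log2, edgeR adjusted p 2.1e-10). Cells with a Ptprc UMI held 632 CPM of Mif in the same tumours, against 166 CPM in all gated tumour cells of the KO lines. In the mixed libraries, which also held control or WT tumours, KO sums carried 313 to 412 CPM of Mif for line 19 and 1031 to 1089 CPM for line 24. The part of RNA from other cells in these values was not tested. Of the 6 Mif, receptor and paralog genes tested, 5 rose, among them Cd74, the Mif receptor chain, by a log2 of 2.91. Cells with a Ptprc UMI held 5397 CPM of Cd74, against 191 CPM in the gated cells.

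From day 0 to the tumour days, at an adjusted p under 0.05, 7883 of the 13118 genes past the low-count filter changed (60.1%), with 4086 higher (31.1%) and 3797 lower (28.9%), and the median log2 change over all genes tested was 0.003. The share was 37.4% of 21892 genes with no filter and 44% of 9953 genes with sums thinned to the smallest. The single days gave like counts, with 6917 genes at day 6 (52.7%), 6815 at day 10 (52%) and 6935 at day 16 (52.9%), all against the same day 0 sums. The shares called higher and lower were 28% and 24.8% at day 6, 27.8% and 24.2% at day 10, and 27.8% and 25.1% at day 16. In 2409 genes (18.4%) every tumour sum lay above every day 0 sum within each line, and in 2033 (15.5%) below. The control lines, which share no sample with the KO lines, changed in 7424 of 12827 genes (57.9%, with 29.6% higher and 28.3% lower). The KO minus control difference called 21.2% of genes higher and 22.5% lower. The counts of list members given below are to be read beside these shares over all genes. Of the genes called higher, 1900 were called higher in both groups of lines, 46.5% of the KO calls and 50% of the control calls. Of those called lower, 1266 were shared, 33.3% of the KO calls and 34.9% of the control calls.

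Cell cycle genes rose from day 0 to the tumour days in both KO lines, and fell in both control lines. Of the 20 S phase genes tested, 19 rose and none fell, with a median log2 change of 1.13. All 20 G2/M genes rose, with a median of 0.91. In the control lines all 20 genes of each list fell, with medians of -0.96 and -0.65. The difference of the steps, KO minus control, passed the threshold in all 40 genes (medians 1.98 and 1.63), where 21.2% of all genes tested were called in that direction, 22.5% in the other and 43.7% in either. List members were not counted for the step or the difference with single sums left out. Under the other alternatives, the step in the KO lines gave 18 to 20 higher S phase genes and 19 to 20 higher G2/M genes. The difference gave 20 of each. Line is nested in group, with 2 lines a group, so this test covers these 4 lines.

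The summed level shows where the groups lay. The S phase list summed to 345 and 419 CPM in line 19 at day 0 and to 869 to 1185 CPM in its tumour days. Line 24 had 511 and 573 CPM at day 0 and 841 to 1117 CPM later. Control line 15 had 1727 and 1927 CPM at day 0 and 841 to 1433 CPM later, and control line 18 had 2248 CPM in its single day 0 sum of 196 cells and 1022 to 1466 CPM later. The day 0 sums were thus the lowest of the KO lines and the highest of the control lines, while the tumour sums of all 4 lines overlapped. For the G2/M list, line 19 held 535 and 825 CPM at day 0 and line 24 held 690 and 722 CPM. At that day line 15 held 2385 and 2483 CPM and line 18 held 2745 CPM. In the tumour days the G2/M list held 1479 to 1713 CPM in line 19 and 1135 to 1493 CPM in line 24. Control line 15 held 1228 to 1955 CPM then and line 18 held 1710 to 2431 CPM. All tumour sums of line 24 thus lay below all those of line 18 for this list. Without the 137-cell sum of line 19 and the day 0 sum of line 18, all 40 genes still passed for the difference between KO and control, in a fit chosen after seeing the data. Line 18 has no day 0 sum in that fit, so the control step rests on line 15 alone.

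**Figure D1:**
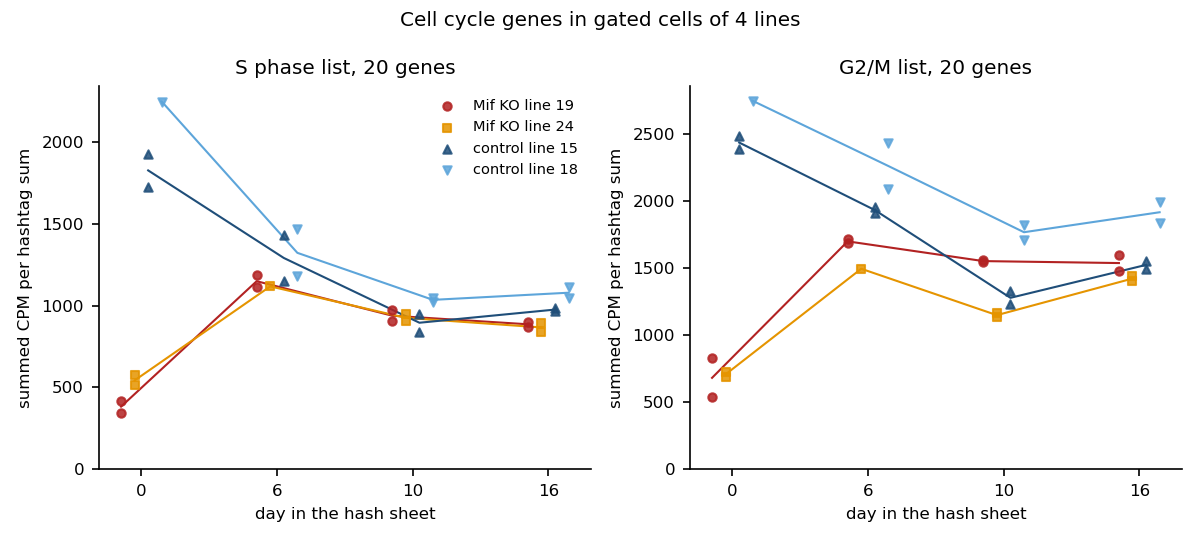
Summed CPM of the S phase list and the G2/M list (20 genes each) per hashtag sum, by day of the hashtag sheet, with lines through the mean of each day. The KO lines start at 345 to 573 CPM of S phase genes and the control lines at 1727 to 2248 CPM. In the tumour days the 4 lines overlap for the S phase list. For the G2/M list the tumour sums of line 24 lie below those of line 18.

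Mcm5, a subunit of the helicase that opens DNA for replication, whose promoter stretch is shown above, was at 13.3 and 14.3 CPM at day 0 in line 19 and at 42.2 to 73.4 CPM in its tumour sums. In line 24 it was at 16.3 and 18.4 CPM at day 0 and at 39.9 to 63.9 CPM later. Within each line all tumour sums lay above both day 0 sums, with a log2 change of 1.68 (SE 0.11, edgeR adjusted p 1.0e-08) and a KO minus control difference of 2.72 (edgeR adjusted p 3.9e-13). Uhrf1, which helps copy DNA methylation, rose by 1.58, Rrm2, a subunit of ribonucleotide reductase, by 1.46, and Tyms, which makes thymidylate, by 1.35. Of the mitotic genes, Ccna2 (cyclin A2) rose by 1.62, Birc5 (survivin) by 1.45 and Mki67, a marker of cycling cells, by 1.40. Mki67 was at 19.4 and 42.3 CPM at day 0 in line 19 and at 91.1 to 107 CPM later, and in line 24 at 42.1 and 38.9 CPM and at 89.8 to 111 CPM. The Mki67 sums of day 0 and of the tumour days did not overlap in either line.

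Cells were also counted after each was thinned to 1000 UMIs, since depth differed, and 2 to 642 shallower cells were left out of a sum. At day 0, 5.19% to 7.14% of line 19 cells and 8.43% to 11% of line 24 cells had at least 2 UMIs of the S phase list. In the tumour days the shares were 15.9% to 26.0% in line 19 and 17.1% to 29.0% in line 24. Control lines had 42.6% to 59.9% at day 0 and 15.5% to 35.6% later. For the G2/M list the KO lines went from 8.56% to 12.5% at day 0 to 17.4% to 29.7%, and the control lines from 44.7% to 60.9% to 17.3% to 45.2%. The order of the groups at day 0 was the same by cells as by summed CPM. From day 6 to day 16, 8 of the 20 S phase genes fell (median -0.39, where 1.08% of all genes were called lower). That count depended on the libraries, with 0 of 20 by edgeR without letter A or letter B of line 19 at day 6 (20 and 16 at an unadjusted p under 0.05) and 0 in the mixed libraries (13 unadjusted). It was 0 in line 24 alone (7 unadjusted), 1 in line 19 alone, 1 without letter A of line 19 at day 16, 2 without the day 6 sum of line 24 and 3 to 12 without any other single sum. The median stayed between -0.44 and -0.34 with 1 sum left out. Of the 20 G2/M genes edgeR called 0 in the trend, with 2 at an unadjusted p under 0.05, and DESeq2 called 0.

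Chemokine genes, the NF-κB inhibitor gene Nfkbia and immediate early genes rose in both groups of lines. Of 19 chemokine and cytokine genes tested, 16 rose and 2 fell (median log2 change 3.08). The control lines gave 17 and 1 (median 3.30), and the test of the difference called 1 gene higher and 2 lower. Nfkbia was at 195 and 219 CPM at day 0 in line 19, at 2670 and 2662 CPM at day 6, at 1896 and 1606 CPM at day 10, and at 1841 and 1625 CPM at day 16. Line 24 had it at 148 and 171 CPM at day 0 and at 1188 to 1832 CPM in the tumour days. The groups were far apart in both lines, with a log2 change of 3.31 (SE 0.13, edgeR adjusted p 2.2e-10). Its step exceeded that of the control lines by 0.87 (edgeR adjusted p 3.8e-03), and without the 2 thin day 0 sums this difference was 0.66 (edgeR adjusted p 0.059). Nfkbia was spread over many cells. With cells thinned to 1000 UMIs, 15.9% to 17.6% of cells had an Nfkbia UMI at day 0 and 53.8% to 73.3% in the tumour days (59.0% to 75.4% and 71.0% to 94.5% without thinning).

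Cxcl1, a chemokine that draws neutrophils, was at 34.3 and 48.3 CPM at day 0 in line 19, at 932 and 910 CPM at day 6 and at 428 to 474 CPM at days 10 and 16. In line 24 it was at 238 and 267 CPM at day 0 and at 1740 to 2781 CPM in the tumour days. Both lines rose without overlap, from day 0 levels that differed between them (log2 change 3.49, SE 0.20, edgeR adjusted p 3.8e-09). Cxcl2, a related chemokine, rose by 3.76. Ccl2 and Ccl7, which draw monocytes, rose by 3.65 and 3.81. Ccl2 held 17.3 to 108 CPM in the tumour sums of line 19 and 743 to 1593 CPM in those of line 24. Cells with a Ptprc UMI held 999 CPM of Cxcl2 against 64.8 CPM in the gated tumour cells, and 151 CPM of Ccl7 against 32.6 CPM. The part of immune cell RNA in Cxcl2 and Ccl7 was not tested. For Cxcl1 and Ccl2 the levels in cells with a Ptprc UMI were 567 and 283 CPM, against 982 and 260 CPM in the gated cells. These levels pool line 19 and line 24, and both gated values lie between the tumour ranges of the lines. In line 19 all gated tumour sums of Ccl2 lay below the pooled 283 CPM. The part of immune cell RNA in Cxcl1 and Ccl2 was not tested either.

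Of 17 immediate early genes, which cells raise within a short time of a stimulus, 16 rose and none fell (median 2.07), and 15 rose in the control lines. Dissociation of tissue is known to raise such genes, and the labels give no dissociation step specific to day 0. Its part in these changes was not tested. Nr4a1, a nuclear receptor of this class, was at 27.1 and 43.1 CPM at day 0 in line 19 and at 214 to 311 CPM later, and in line 24 at 14.5 and 23.5 CPM and at 472 to 626 CPM. It rose by 3.68 (SE 0.33, edgeR adjusted p 2.3e-07), more in line 24 than in line 19 by 2.05 (edgeR adjusted p 2.3e-05). Egr1, another early factor, rose by 2.81, and Btg2, which slows division, by 1.75. Rgcc, a regulator of the cell cycle, was at 6.64 and 14.8 CPM at day 0 in line 19 and at 3.81 and 12.1 CPM in line 24, and at 129 to 199 CPM in all 11 tumour sums. Its change of 3.84 (SE 0.22, edgeR adjusted p 3.7e-09) was the largest among the genes named by rule. After thinning, 0% to 1.26% of cells had an Rgcc UMI at day 0 and 9.86% to 14.6% later (2.87% to 8.38% and 29.8% to 51.4% without thinning). Sgk1, a kinase raised by serum and glucocorticoids, rose by 3.39.

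The metallothioneins Mt1 and Mt2, which bind zinc and copper, rose. Of the 6 metallothionein, ferritin and iron genes tested 3 rose and 3 fell (median 0.42), where 31.1% and 28.9% of all genes did. Mt2 was at 114 and 215 CPM at day 0 in line 19 and at 1747 to 2244 CPM in its tumour sums, and in line 24 at 175 and 238 CPM and at 1868 to 3291 CPM. All tumour sums were far above all day 0 sums (log2 change 3.50, SE 0.16, edgeR adjusted p 7.5e-10). The step exceeded that of the control lines by 2.0 for Mt2 (edgeR adjusted p 4.5e-09) and by 1.83 for Mt1. Mt2 was found in 11.9% to 19.2% of thinned cells at day 0 and in 64.7% to 76.8% in the tumour days (50.7% to 56.9% and 78.3% to 95.2% without thinning). Tfrc, the transferrin receptor, rose by 1.23 in the KO lines, and its difference from the control step was 2.16. All 10 heat shock genes rose (median 0.86), against 4 higher and 4 lower in the control lines, where 29.6% and 28.3% of all genes were. For the difference 8 passed, where 43.7% of all genes did. At day 0 the list summed to 3477 to 5237 CPM in the KO lines and 7752 to 8118 CPM in the control lines. In the tumour days the ranges overlapped, at 5561 to 9124 CPM and 5391 to 7521 CPM. Hspa1b, an inducible chaperone, rose by 3.36 and Dnajb1, a co-chaperone, by 2.50. The KO minus control difference of Hspa1b, 1.23, lost the threshold without line 15, line 18 or line 24 (1.75, 1.02 and 0.52).

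**Figure D2:**
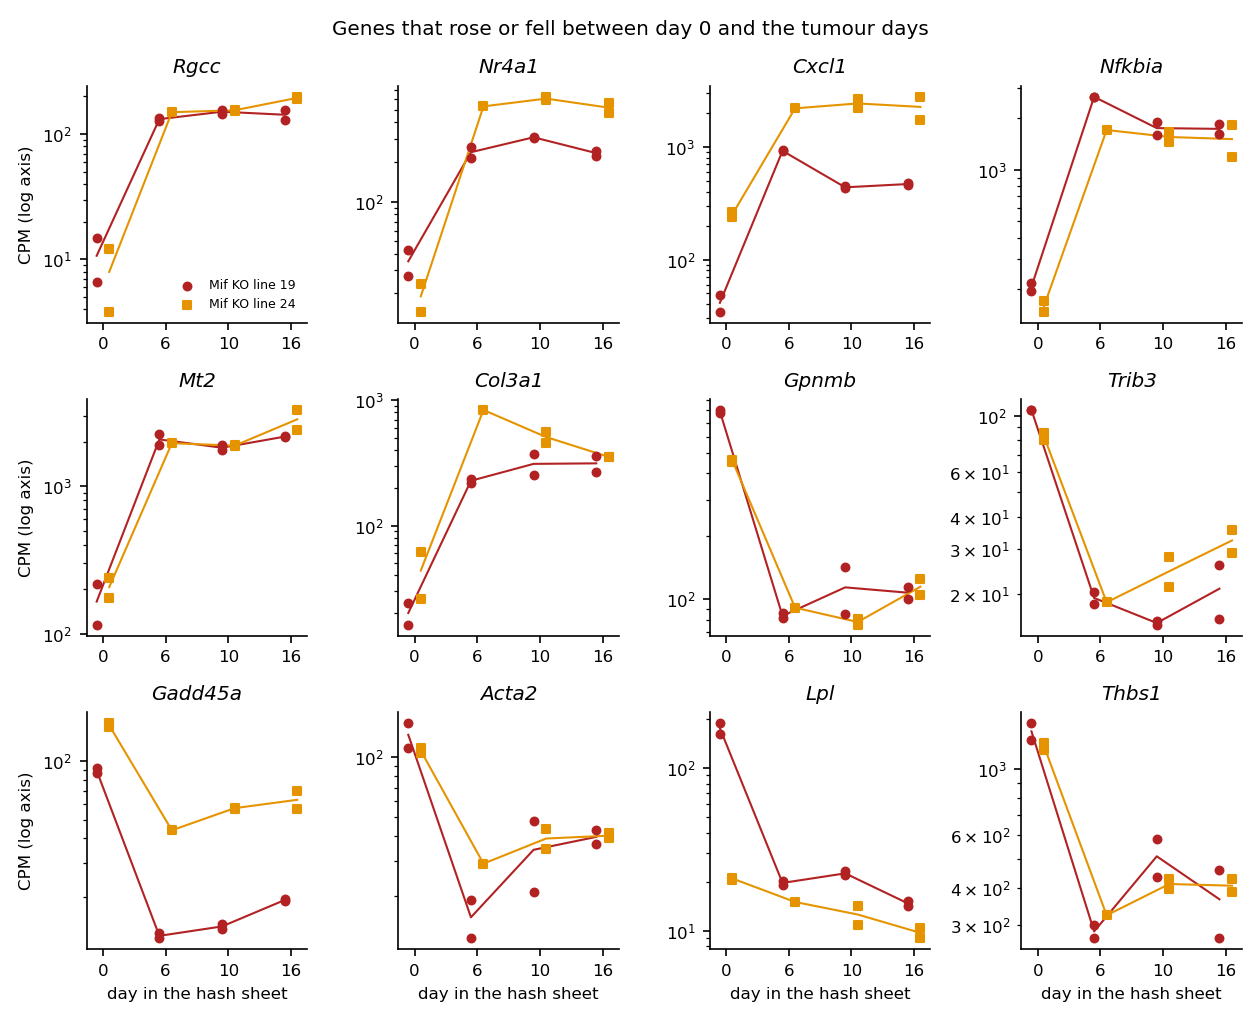
CPM per hashtag sum on a log axis, by day, for 12 genes named by rule among the rises and falls from day 0 to the tumour days, with lines through the mean of each day. Rgcc, Nr4a1, Cxcl1, Nfkbia, Mt2 and Col3a1 are higher in every tumour sum than at day 0 of the same line, and Gpnmb, Trib3, Gadd45a, Acta2, Lpl and Thbs1 are lower.

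Of 18 genes of the integrated stress response tested, 12 fell and 1 rose (median -0.72), and the control lines gave 14 lower and 2 higher. The summed list went from 3154 and 3309 CPM at day 0 to 2024 to 2535 CPM in line 19. In line 24 it was at 2516 and 2654 CPM at day 0 and at 2201 to 2987 CPM later, with both day 16 sums above day 0, so the sum was lower in line 19 and overlapped in line 24. Trib3, a pseudokinase induced by ATF4, was at 105 CPM in both day 0 sums of line 19 and at 15.1 to 25.9 CPM later, and in line 24 at 79.8 and 85.6 CPM and at 18.5 to 35.7 CPM. It changed by -2.09 (SE 0.15, edgeR adjusted p 3.2e-08), with no overlap. Chac1, which degrades glutathione, was at 141 and 138 CPM at day 0 in line 19 and at 101 and 112 CPM in line 24, and at 27.5 to 55.8 CPM in the tumour sums (log2 change -1.61, edgeR adjusted p 8.5e-08). Ddit3 (CHOP), a stress factor, changed by -1.43. Asns, which makes asparagine and whose promoter stretch is shown above, changed by -1.20 (edgeR adjusted p 3.4e-09). Asns was picked after its values were seen. Atf3, a stress factor that many stimuli induce, was the list member that rose, by 2.41.

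The steps of the unfolded protein response genes differed between the KO lines. Over both lines 11 of 12 genes fell and none rose (median -0.64), but all 12 differed between the lines (line 24 minus line 19, median 1.06), where 14.1% of all genes tested differed, 6.27% with line 24 higher and 7.87% with line 24 lower. Line 24 alone gave 4 lower and 3 higher, near its shares over all genes (25.5% and 26.4%). Hspa5 (BiP), the main chaperone of the endoplasmic reticulum, was at 1698 and 1765 CPM at day 0 in line 19 and at 591 to 648 CPM later. Line 24 had it at 600 and 594 CPM at day 0 and at 593 to 690 CPM later. The tumour sums of both lines overlapped with each other and with the day 0 sums of line 24, and the day 0 sums of line 19 stood apart. The step of Hspa5 differed between the lines by 1.59 (edgeR adjusted p 1.7e-08), and line 24 alone gave a log2 change of 0.09. Sdf2l1 differed by 1.38 and Herpud1, of protein degradation at the reticulum, by 0.64. Summed over the list, line 19 held 7816 and 7562 CPM at day 0 and 3285 to 3567 CPM later, and line 24 held 2862 to 3035 CPM in all its sums. Of the oxidative stress genes, Hmox1 (heme oxygenase) changed by -1.06 and Nqo1, a quinone reductase, by -1.15. Without letter B of line 19 at day 0, Hmox1 was at -0.57 (edgeR adjusted p 0.103) and Nqo1 at -0.58 (edgeR adjusted p 0.058), and line 24 alone gave 0.12 and -0.24.

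Among the other large falls was Gpnmb, a membrane glycoprotein of pigment cells, macrophages and tumours. It was at 804 and 781 CPM at day 0 in line 19 and at 466 and 454 CPM in line 24, and at 75.3 to 143 CPM in all 11 tumour sums. The change was -2.68 (SE 0.14, edgeR adjusted p 1.3e-09), and the KO minus control difference was -1.54 (edgeR adjusted p 2.6e-05). A Gpnmb UMI was found in 37.5% to 52.3% of thinned cells at day 0 and in 5.64% to 12.5% in the tumour days (81.5% to 93.8% and 16% to 56.5% without thinning), so the share of cells with it fell as its level did. Gadd45a, a gene of growth arrest and DNA damage, changed by -2.04. Lpl, a lipase, was at 188 and 163 CPM at day 0 in line 19 and at 21.2 and 20.6 CPM in line 24, and at 8.95 to 23.1 CPM later. Its step, -2.40 over both lines, was -0.77 in line 24 alone, and that of Gask1b went from -2.48 to -0.89. Adh7, an alcohol dehydrogenase, went from -1.99 to -1.07. Prss23, a serine protease, changed by -1.97 and Napsa, an aspartic protease, by -1.83.

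Thbs1, Ogn, Phyhd1 and Acta2 fell in the KO lines, with steps below those of the control lines. Thbs1 (thrombospondin 1), a matrix protein, was at 1430 and 1255 CPM at day 0 in line 19 and at 1230 and 1166 CPM in line 24, and at 270 to 584 CPM later. Its change of -1.76 (SE 0.11, edgeR adjusted p 9.3e-09) stood against steps of 0.07 and 0.38 in control lines 15 and 18, a difference of -1.95 (edgeR adjusted p 5.2e-09). Ogn, a small proteoglycan, was at 1308 and 1228 CPM at day 0 in line 24 and at 303 to 393 CPM later, and in line 19 at 392 and 357 CPM and at 49.1 to 114 CPM. It changed by -1.97, with a difference of -1.64 from the control step. Phyhd1, a dioxygenase, changed by -1.95 with a difference of -2.22. Acta2, smooth muscle actin, was at 105 to 148 CPM in the 4 day 0 sums and at 12.2 to 47.5 CPM later, and changed by -1.98 with a difference of -2.51. A fit without cells holding a stromal marker UMI gave -3.38 for the change and -1.10 (edgeR adjusted p 0.11) for the difference. Of 13 genes of the YAP and serum response list, 7 fell and 4 rose, the latter near the 31.1% over all genes. Amotl2 changed by -1.34 and Ankrd1 by -1.11, both YAP targets.

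Genes of glycolysis and hypoxia rose. All 15 glycolysis genes rose (median 0.84), against 6 higher and 2 lower in the control lines. For the difference 9 passed, none in the other direction, where 21.2% of all genes passed with KO above. At day 0 the list summed to 8929 to 16685 CPM in the KO lines and 21482 to 26484 CPM in the control lines. In the tumour days line 19 held 23390 to 28035 CPM, which overlapped with the 20180 to 29061 CPM of the control lines. Line 24 held 12794 to 19113 CPM then, below all control sums. Pgk1, phosphoglycerate kinase, was at 630 and 669 CPM at day 0 in line 19 and at 1201 to 1644 CPM later, and in line 24 at 226 and 229 CPM and at 551 to 867 CPM. It rose by 1.41 (SE 0.11, edgeR adjusted p 7.9e-08), where the control lines gave -0.22 and -0.09. Ldha, lactate dehydrogenase, rose by 0.95 with a difference of 1.18, and Slc2a1, the glucose transporter GLUT1, rose by 1.31. Of 14 hypoxia genes 13 rose (median 1.25), and so did 12 of 15 in the control lines. Car9, a carbonic anhydrase used as a hypoxia marker, was at 73.1 to 82.1 CPM in the 4 day 0 sums, at 140 to 154 CPM at day 6 and at 264 to 365 CPM at days 10 and 16. Day 0, day 6 and the later days did not overlap, while days 10 and 16 did, and its change was 1.65 (SE 0.07, edgeR adjusted p 2.2e-10). Ankrd37 rose by 2.11.

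Of 17 genes of oxidative phosphorylation, 2 rose and 5 fell (median -0.06), while 15 fell in the control lines (median -0.47), and 16 passed as higher for the difference (median 0.41), where 21.2% of all genes did. The 5 that fell are near the 28.9% over all genes. Atp5b, a subunit of ATP synthase, rose by 0.35 in the KO lines. Ndufa4, of the respiratory chain, changed by -0.62 in the KO lines and by -1.07 in the control lines. Of 21 cholesterol synthesis genes, 17 rose (median 0.55), against 4 higher and 3 lower in the control lines, where 29.6% and 28.3% of all genes were. For the difference 12 passed, where 43.7% of all genes did. Stard4, a cholesterol transporter named with this list, rose by 0.90 with a difference of 1.15. Of 11 fatty acid synthesis genes 4 rose and 4 fell, near the shares of 31.1% and 28.9% over all genes.

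Of 24 interferon genes tested, 8 rose and 8 fell (median -0.08), shares near the 31.1% and 28.9% over all genes tested. Day 6 gave 12 higher and 1 lower, day 10 gave 4 and 11, and day 16 gave 8 and 9, all against the same day 0 sums. The genes that rose were Cxcl9, Cxcl10, Irf1, Gbp2, Gbp3, Gbp7, Igtp and Iigp1. Those that fell were Ifit1, Ifit2, Ifit3, Isg15, Bst2, Usp18, Rtp4 and Ifi44. These are the members called each way, not lists of their own. Cxcl10, a T cell chemokine, was at 9.96 and 15.1 CPM at day 0 in line 19, at 286 and 319 CPM at day 6, and at 43.5 to 86.1 CPM at days 10 and 16. In line 24 it was at 56.5 and 49.4 CPM at day 0 and at 575 to 1145 CPM later (log2 change over both lines 3.69, SE 0.41, edgeR adjusted p 2.0e-06).

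Summed over the interferon list, line 19 held 3355 and 3112 CPM at day 0, 4070 and 4228 CPM at day 6 and 1157 to 1418 CPM at days 10 and 16. Line 24 held 3863 and 4152 CPM at day 0 and 3477 to 5732 CPM later. Days 10 and 16 lay below day 0 in line 19. In line 24 day 10 overlapped with day 0, and both day 16 sums lay above it. In the trend from day 6 to day 16 the edgeR test called 0 of the 24 genes (median -1.01, with 13 at an unadjusted p under 0.05), and DESeq2 also called 0. With day as a factor and the day 10 sums kept in the fit, day 16 against day 6 gave 17 lower genes by edgeR. Of all genes, 6.93% were lower. For the difference between the lines in that trend edgeR called 0 of 24 (line 24 minus line 19, median 1.92, with 23 at an unadjusted p under 0.05), and DESeq2 was not run for it. For the step from day 0, line 19 alone gave 14 lower genes, where 26.6% of all its genes were. Irf1, a factor of the interferon gamma response, rose by 2.98, with 179 and 185 CPM at day 6 and 68.5 to 81.1 CPM afterwards in line 19. Of 17 genes of MHC class I presentation, 13 rose and 1 fell (median 0.53), among them the immunoproteasome subunit Psmb9, which rose by 1.43. Summed, the list was at 4869 and 5105 CPM at day 0 in line 19 and at 5415 to 6461 CPM later. In line 24 it was at 7721 and 8020 CPM and at 6757 to 12971 CPM, with overlap. The median trend of its members from day 6 to day 16 was -0.60 in line 19 alone and 0.63 in line 24 alone. Of 8 checkpoint ligands 6 rose and 1 fell (median 1.70). Their sum was at 141 and 147 CPM at day 0 in line 19 and at 114 to 178 CPM later, with overlap, and in line 24 at 114 and 115 CPM and at 169 to 195 CPM. Tnfsf9 (4-1BB ligand) rose by 1.45 and Pvr by 1.16. In the gated sums, T and NK cell markers held 3.86 to 16.9 CPM in the tumour days of line 19 and 37.5 to 94.8 CPM in those of line 24, against 0 to 4.63 CPM at day 0. Cells with a Cd3e UMI were 2.65% to 8.42% of assigned cells in line 19 and 6.58% to 15.5% in line 24. Their part in the interferon values was not tested.

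**Figure D3:**
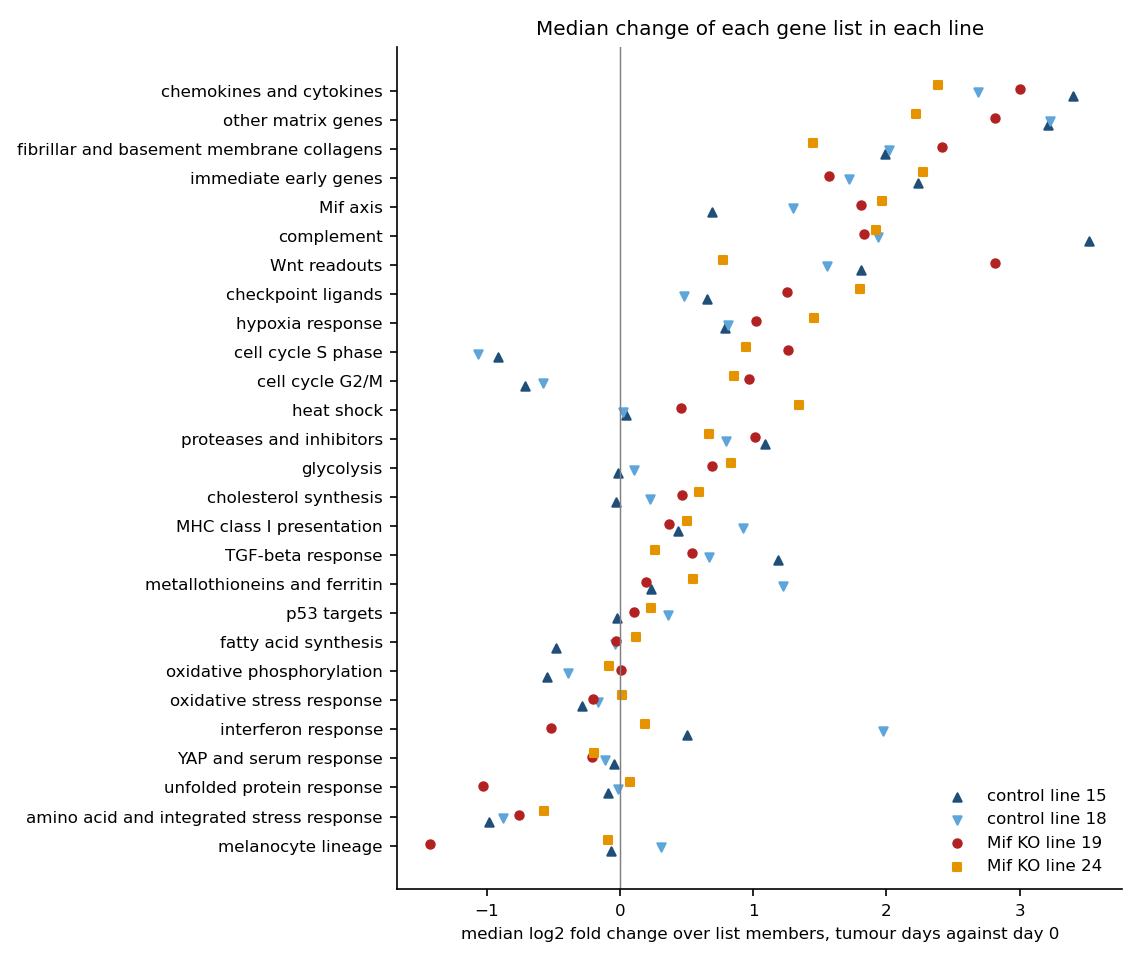
Median log2 fold change of each gene list from day 0 to the tumour days (horizontal axis), fitted in each of the 4 lines alone. The S phase and G2/M lists lie above 0 in lines 19 and 24 and below 0 in lines 15 and 18, while the unfolded protein response lies apart in line 19.

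Of 18 collagens 13 rose and 3 fell (median 1.89), and of 20 other matrix genes 13 rose and 4 fell (median 2.34). The summed level of the other matrix genes did not follow these counts. It was at 19941 and 20205 CPM at day 0 in line 24 and at 12934 to 16476 CPM in its tumour sums, all below day 0, and in line 19 it went from a mean of 20436 to 16261 CPM with overlap. Spp1 (osteopontin), a secreted matrix protein and the member with the most UMIs, changed by -0.49 (edgeR adjusted p 3.6e-05). In control lines 15 and 18 the sum was at 7781 to 8513 CPM at day 0 and at 8555 to 18992 CPM later. The control lines gave 13 higher collagens and 17 higher matrix genes, with no fall. Col3a1, a fibrillar collagen, was at 16.1 and 24.1 CPM at day 0 in line 19 and at 218 to 370 CPM later, and in line 24 at 26.1 and 61.4 CPM and at 351 to 835 CPM (log2 change 3.58, SE 0.30, edgeR adjusted p 1.1e-07). Col1a1 rose by 3.51 and Col6a3 by 3.30. Dcn (decorin), a proteoglycan of fibroblasts, was at 0.554 and 9.04 CPM at day 0 in line 19 and at 53.5 to 105 CPM later, and in line 24 at 0.914 and 17.4 CPM and at 33.6 to 180 CPM. It rose by 3.16 (SE 0.45, edgeR adjusted p 2.7e-05).

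The share of cells with a UMI differed widely among these genes. In the tumour days 1.40% to 4.79% of thinned cells had a Dcn UMI. Tnc (tenascin C) was found in 1.74% to 3.72% of them, Serping1 (C1 inhibitor) in 0.862% to 2.58% and Tagln (transgelin) in 0.38% to 1.28%. Col1a1 was found in 25.9% to 41.8% of thinned cells of line 19 and in 4.24% to 12.5% of those of line 24. Col3a1 was found in 11.3% to 22.9% and in 19.1% to 30.5%. Cells with at least 2 of the fibroblast markers Dpt, Pi16, Clec3b, Col14a1 and Pdgfra were 0% to 0.441% of gated cells at day 0. In the tumour days they were 0.437% to 3.17%. Cells with a Pdgfra UMI went from 2.19% and 4.32% at day 0 to 6.43% to 10.4% later in line 19. In line 24 they went the other way, from 15.9% and 14.4% to 7.59% to 9.02%. These marker shares are without thinning. Summed keratinocyte markers were at 0 to 1.88 CPM at day 0 and at 0.864 to 48.5 CPM later.

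In a fit chosen after seeing the data, cells with any UMI of Dcn, Dpt, Col14a1, Pi16, Clec3b, Krt5, Krt14, Rgs5 or Cdh5 were left out. Col1a1, Col3a1 and H19 then changed by 3.42, 3.33 and 3.62, close to 3.51, 3.58 and 3.66 with all gated cells. An H19 UMI was found in few thinned cells of the tumour days, 1.065% to 3.162% in line 19 and 2.091% to 3.032% in line 24. Tagln turned from 2.55 to -0.87 (edgeR adjusted p 0.163), Bgn (biglycan) went from 2.33 to 0.41, Rarres2 (chemerin) from 3.34 to 1.19, Tnc from 3.15 to 1.94 and Serping1 from 3.06 to 2.40. The steps of Tagln, Bgn, Rarres2 and Tnc thus depended on whether cells with a UMI of these markers were counted. Dcn, a marker of this gate, is itself among the rises. Which cells the RNA came from was not tested. Timp1, an inhibitor of matrix proteases, rose by 1.63 and by 1.46 without those cells, with a KO minus control difference of 1.29. Of 18 proteases and inhibitors 8 rose and 5 fell, the latter near the 28.9% over all genes, and 9 were lower than in the control lines for the difference, where 22.5% of all genes were. Their sum in line 24 was at 4386 and 4565 CPM at day 0 and lower later, at 3362 to 3764 CPM. In line 19 it overlapped, at 4391 and 4642 CPM and at 3827 to 4956 CPM. Of 9 complement genes 5 rose and 4 fell, where 31.1% and 28.9% of all genes did. The summed complement list of line 24 was at 471 and 492 CPM at day 0 and lower later, at 242 to 451 CPM. In line 19 it overlapped, at 79.7 and 103 CPM and at 43.4 to 91.3 CPM. C1ra and C1s1, proteases of the first complement complex, changed by -1.31 and -1.16 in the KO lines and by 0.54 and 2.43 in the control lines. The differences, -1.83 and -3.63, lost the threshold without line 15 (-2.46 and -2.53), and without cells holding a stromal marker UMI they were -1.24 and -2.18. Of 10 Wnt readouts 7 rose (median 1.24). Their sum was at 34.5 and 51.7 CPM at day 0 in line 19 and at 87.7 to 168 CPM later, while in line 24 it was at 61.8 and 63.6 CPM and at 53.1 to 71.0 CPM, with overlap. Of 15 TGF-beta genes 11 rose and 2 fell (median 0.37). Summed, they were at 600 and 607 CPM at day 0 in line 19 and at 589 to 907 CPM later, with overlap. In line 24 they were at 741 and 742 CPM and at 867 to 985 CPM.

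**Figure D4:**
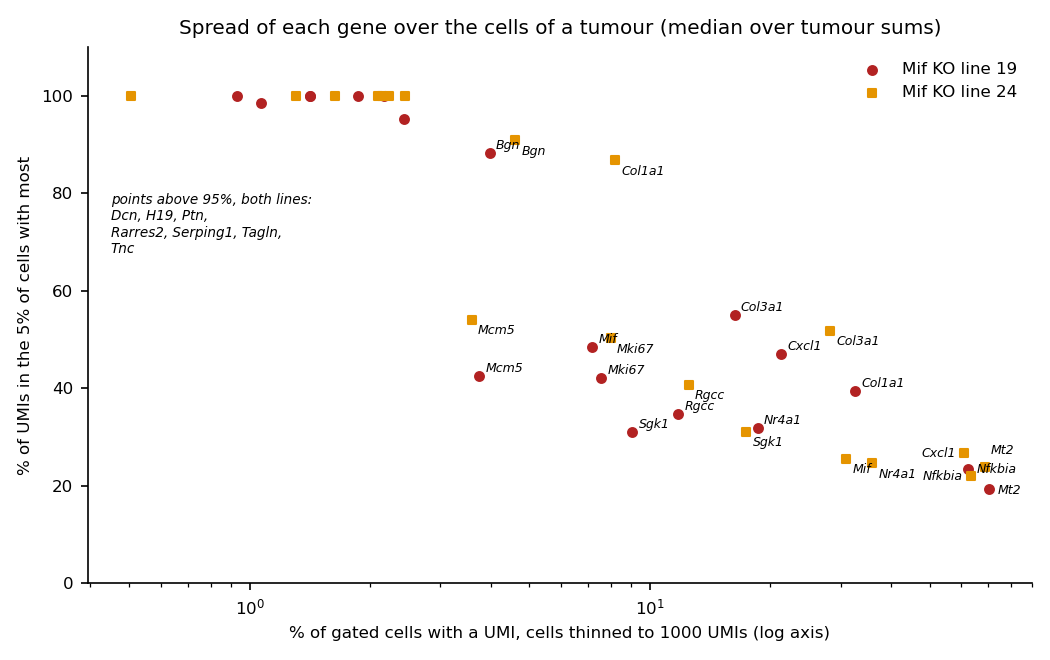
For 19 genes and each KO line, the share of gated cells with a UMI after thinning to 1000 UMIs (horizontal log axis) against the share of the gene's UMIs held by the 5% of cells with most (vertical axis), as medians over tumour sums. A gene whose UMIs lie in 5% of cells or fewer is at 100% by construction, which holds or nearly holds for the genes at the upper left, such as Dcn and Tagln, while Nfkbia and Mt2 lie at the lower right.

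H19 and Eps8l2 were among the named rises. H19, an imprinted non-coding RNA, was at 1.11 and 1.17 CPM at day 0 in line 19 and at 18.7 to 56.6 CPM later, and in line 24 at 4.11 and 4.63 CPM and at 31.4 to 53.3 CPM. It rose by 3.66, with steps of 0.05 and 2.07 in control lines 15 and 18, and its KO minus control difference of 3.43 was 1.53 (edgeR adjusted p 0.69) without line 15. Eps8l2, an actin regulator, was at 1.66 and 5.98 CPM at day 0 in line 19 and at 38.9 to 68.5 CPM later. Line 24 had it at 0 to 0.881 CPM in every sum, so its fitted log2 change of 3.31 rests on the levels in line 19. The difference between the KO lines did not pass for either gene (edgeR adjusted p 0.16 for H19 and 1.0 for Eps8l2, whose SE was 17.9).

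From day 6 to day 16 far fewer genes changed. The fitted trend called 289 of 13407 genes (2.16%), 144 higher (1.07%) and 145 lower (1.08%), with 2776 genes at an unadjusted p under 0.05. The count was unstable. Leaving out a single sum gave 31 to 878 genes (31 without letter B of line 19 at day 6, 878 without letter A of line 19 at day 10), and each of the 11 sums moved it by over 1.5 times. Of the 12 genes named for the trend, 5 lost the threshold without either of the day 6 sums of line 19, 4 and 3 without letter A and letter B of that line at day 16, and 0 to 2 without any other sum. In line 19 alone 5 lost it, in line 24 alone 9 of the 11 tested, and with the letter as a block 2. The tumours of the same lines in the mixed libraries gave 7 genes, and the control lines gave 2031 (16.2%, with 7.79% higher and 8.37% lower). The trend differed between KO and control lines in 249 genes (1.82%, with 1.04% higher and 0.775% lower).

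Lgals7 (galectin 7) rose in both lines. It was at 233 and 235 CPM at day 6 in line 19, at 305 and 331 CPM at day 10, and at 490 and 475 CPM at day 16. In line 24 it was at 48.0 CPM, then 52.3 and 70.7 CPM, then 60.8 and 84.5 CPM. The days did not overlap in line 19, and days 10 and 16 overlapped in line 24 (log2 change from day 6 to day 16 of 0.88, SE 0.13, edgeR adjusted p 8.8e-03). Crabp2, which carries retinoic acid, rose by 0.70 and Sox4, a transcription factor, by 0.71. Anxa8 (annexin A8) rose by 1.46, at 28.2 to 108 CPM in line 19 and 0.881 to 1.54 CPM in line 24. The non-coding 3300005D01Rik rose by 0.81. Ptn, a heparin-binding growth factor, rose by 2.0 (edgeR adjusted p 0.045), with 95.5 CPM in 1 of the day 16 sums of line 24 and 17.6 CPM in the other. Without the sum at 95.5 CPM the trend of Ptn was 1.44 (edgeR adjusted p 0.087).

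Lgals9 (galectin 9), a checkpoint ligand, was at 72.3 and 71.1 CPM at day 6 in line 19, at 42.9 and 46.1 CPM at day 10, and at 29.1 and 26.2 CPM at day 16. Line 24 had it at 93.0 CPM, then 78.2 and 76.2 CPM, then 66.4 and 57.9 CPM. The days followed each other without overlap in both lines, with a trend of -1.05 (SE 0.13, edgeR adjusted p 5.5e-03), and a KO minus control difference of -1.11 (edgeR adjusted p 0.004). That difference was -0.87 (edgeR adjusted p 0.11) without line 18 and -0.64 (edgeR adjusted p 0.13) without line 19. Gchfr, a regulator of tetrahydrobiopterin synthesis, was at 173 and 185 CPM at day 6 in line 19 and at 75.2 and 104 CPM at day 16, and in line 24 at 106 CPM and at 33.7 and 37.3 CPM. It fell by 1.12 on the log2 scale, with a KO minus control difference of -0.84 that lost the threshold without line 18 (-0.64, edgeR adjusted p 0.38) and without line 24 (-0.68, edgeR adjusted p 0.16). Of the 12 genes named for the trend it alone also passed in the mixed libraries. Angptl4, which inhibits lipoprotein lipase, fell by 1.38. Col4a1 and Col4a2, the basement membrane collagens, fell by 0.86 and 0.83, and their trends in the control lines were -0.63 and -0.89. Oas1g, an interferon gene, fell by 1.58 (edgeR adjusted p 0.047), with line 24 alone at -0.35.

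**Figure D5:**
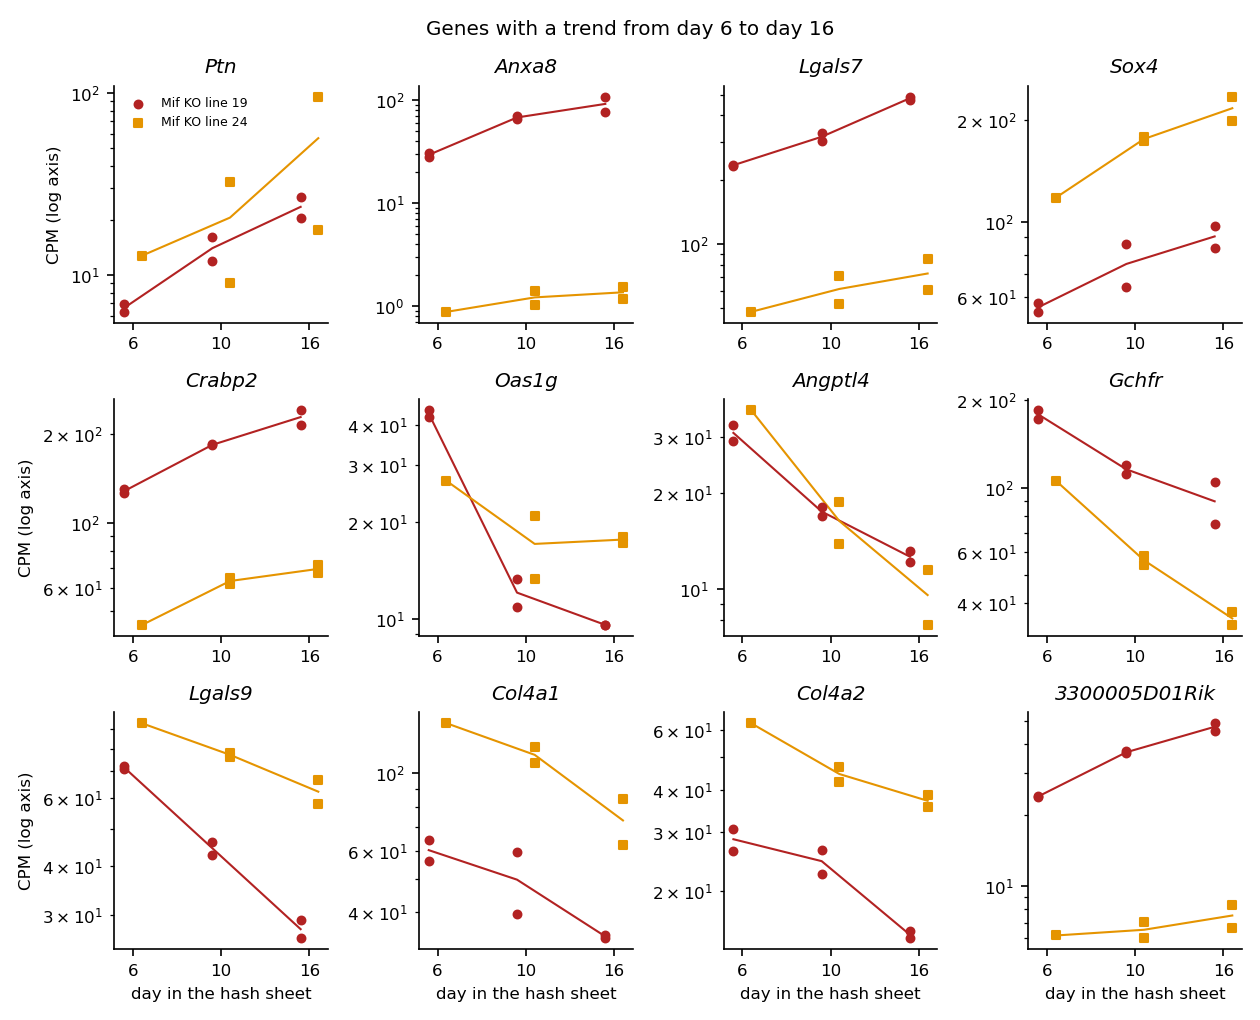
CPM per hashtag sum on a log axis at days 6, 10 and 16 for the 12 genes named by rule for the trend, with lines through the mean of each day. Line 24 has a single sum at day 6, and the 2 day 16 sums of line 24 for Ptn lie far apart at 17.6 and 95.5 CPM.

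The lines also differed in the size of the step. Of 13118 genes, 1856 (14.1%) differed between line 24 and line 19, 823 higher and 1033 lower, and leaving out a single sum gave 743 genes (without letter B of line 19 at day 0) to 2226. Leaving out letter A or letter B of line 24 at day 0 gave 1173 and 877. Gask1b, a Golgi kinase family member, was at 168 and 146 CPM at day 0 in line 19 and at 19.7 and 20.1 CPM in line 24, and at 6.48 to 17.6 CPM later (difference 2.40, edgeR adjusted p 1.9e-06). Lpl gave 2.35, Adh7 1.66 and Prss23 1.01. As with Hspa5, the tumour sums of both lines lay closer together than their day 0 sums for Gask1b, Lpl and Adh7. Sgk1 gave 1.55, which lost the threshold without letter B of line 19 at day 0 (0.60, edgeR adjusted p 0.80) and without letter A of line 24 at day 0 (1.27, edgeR adjusted p 0.062). In the trend, 19 genes (0.142%) differed between the lines, 0.0895% of genes higher and 0.0522% lower in line 24, and 0 to 297 with a single sum left out. Of those 11 edgeR fits 6 gave 0 genes, with 1363 to 2274 at an unadjusted p under 0.05, and no other tool was run for this difference.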

How the data were processed

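The authors deposited UMI counts per gene and per hashtag for each barcode of 6 libraries, as whole-number counts with 32285 gene rows and 10 hashtag rows. They came from Cell Ranger 6.0.0 and the mm10 build, per the submitters' processing notes. Tumours were dissociated with a Miltenyi gentleMACS instrument, stained with TotalSeq-C hashtags, sorted for live cells by propidium iodide and run on the 10x 5′ kit, per the labels' protocols. Each hashtag was mapped to a line, day and letter by the deposited hashtag sheet.

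Gated counts were summed per hashtag where at least 50 cells remained. Doublets were not called beyond the hashtag rule. Genes were filtered with filterByExpr, scaled by TMM and tested with edgeR 4.0.16 (R 4.3.3) by glmQLFit and glmQLFTest, with line as a factor, day 0 against days 6, 10 and 16 and a slope from day 6 to day 16. Benjamini-Hochberg adjustment ran over all genes, with a threshold of 0.05. Values per sum are CPM on TMM-scaled library sizes. Levels in cells with a Ptprc UMI, and the gated levels set against them, pool the tumour sums of both KO lines without TMM scaling. The KO minus control fit used 1 library for each of the 4 lines, and levels of KO and control sums set side by side were scaled over all libraries. Tests were checked on simulated data. Summaries used Python 3.11.15, scipy 1.17.1 and matplotlib 3.10.9.

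Named genes were Mif, the 12 largest rises and 12 largest falls, 6 trend genes each way and up to 4 members per list. That gave 114 genes for the step, of which the text gives values for 75, chosen after their values were seen, and 1 is not reported here. Rises and falls needed an adjusted p under 0.05, an average log2 CPM of at least 4, and tumour sums all on 1 side of the day 0 sums within each line. A rise also had to be at least as high in gated cells as in cells with a Ptprc UMI, which left out 13. The members and lists were chosen with earlier results of these data known. Promoter sequences are from RefSeq (GRCm38.p6).

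Alternatives tried were RLE scaling, DESeq2 1.42.0, no low-count filter, thinned sums, stricter cell and hashtag rules, other gates, single lines, the mixed libraries, each sum left out, and the hashtag letter as a block. Deviations of sums sharing letter A correlated at -0.14 to 0.166 (median 0.0139, 21 pairs). Each deviation comes from 2 sums and holds counting noise, so this check cannot tell whether letters pair the sums. With the letter as a block the trend gave 154 genes, against 289.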

Additional observations from a re-analysis of the deposited data

Results flagged for a closer look

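Within 1 day, 1 sum stood far from the other 3 in 12 of 258 groups of 4 sums, where chance gives about 1 in 20 for 4 draws from a single group. Each of these groups holds sums of 2 KO lines, so that rate is not the one for them. The ratio of its gap to the whole range, by Dixon's rule, was 0.892 for Col3a1 and 0.88 for Ptn at day 16 (letter B of line 19 and of line 24). It was 0.85 for Gpnmb and 0.873 for Herpud1 at day 10 in letter A of line 19. At day 0 it was 0.858 for Acta2 and 0.85 for Mki67 in letter A of line 19, the 137-cell sum, and 0.92 for Birc5 in letter B of that line. In line 24 it was 0.863 for Stard4 (day 16, letter B), 0.901 for Ddit3 and 0.838 for Hspa1b (day 10, letter B), 0.902 for Dcn (day 16, letter A) and 0.983 for Amotl2 (day 0, letter A).

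The step from day 0 differed between the KO lines by the edgeR test of the difference in 26 of the 75 genes given values for that step, with line 24 above line 19 in 23. Over all 114 genes that the naming rule gives for the step, it was 39, with line 24 above in 34. Among all genes tested, 14.1% differed, 6.27% with line 24 above and 7.87% with line 24 below. The naming rule used the same sums. Of the 26, 14 lost the threshold without letter B of line 19 at day 0, 10 without letter B of line 24 at day 0, 5 without letter A of line 24 at day 0 and 3 without letter A of line 19 at day 0, and 0 or 1 without any other sum. The log2 differences were 2.05 for Nr4a1, 1.55 for Sgk1, 2.40 for Gask1b, 2.35 for Lpl, 0.92 for Trib3, 1.11 for Gadd45a, 1.66 for Adh7, 1.01 for Prss23 and 0.69 for Pvr. They were 0.53 for Pgk1, 0.43 for Ldha, 0.90 for Ankrd37, 1.5 for Atf3, 1.04 for Ddit3, 0.64 for Herpud1, 1.38 for Sdf2l1, 1.59 for Hspa5, 1.56 for Nqo1 and 2.13 for Hmox1. Btg2 gave 1.14, Dnajb1 1.46, C1ra 1.0 and C1s1 1.34. Line 24 was lower for Mcm5 (-0.57), Uhrf1 (-0.57) and Rrm2 (-0.68).

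The step differed between KO and control lines in 42 of the 75 genes, with KO above control in 27. It differed in 59 of the 114, with KO above in 42. Among all genes tested, 43.7% differed, 21.2% with KO above and 22.5% with KO below. The naming rule used the same KO sums as this difference. Of the 42, 15 lost the threshold without line 15, 7 without line 18 and 6 without line 24. Without line 19, 2 lost it and 3 changed direction. With the 2 thin day 0 sums left out 8 lost it, and without cells holding a stromal marker UMI 4 did. The cell cycle genes given values in the text were above: Mcm5 by 2.72, Uhrf1 by 2.29, Rrm2 by 2.63, Tyms by 2.27, Ccna2 by 2.1, Birc5 by 2.26 and Mki67 by 1.99. Of metabolic and metal genes, Pgk1 was above by 1.56, Ldha by 1.18, Atp5b by 0.60, Ndufa4 by 0.44, Stard4 by 1.15, Mt2 by 2.0, Mt1 by 1.83 and Tfrc by 2.16. Also above were Mif (1.37), Rgcc (1.18), H19 (3.43), Sgk1 (1.43), Nfkbia (0.87), Eps8l2 (0.99), Tnfsf9 (0.91), Pvr (0.43), Hspa1b (1.23), Dnajb1 (1.16), Timp1 (1.29) and Ankrd1 (0.80). Below were Gpnmb (-1.54), Lpl (-1.12), Gadd45a (-0.72), Acta2 (-2.51), Ogn (-1.64), Phyhd1 (-2.22), Napsa (-1.08), Thbs1 (-1.95), Ddit3 (-1.19), Herpud1 (-0.78), Sdf2l1 (-0.58), Hspa5 (-0.70), Bgn (-1.75), C1ra (-1.83) and C1s1 (-3.63). Of these, Lpl, Sdf2l1 and Hspa5 were above 0 without line 19 (0.52, 0.26 and 0.21), and Acta2 lost the threshold without cells holding stromal markers (-1.10, edgeR adjusted p 0.11). In the trend the difference was -0.84 for Gchfr and -1.11 for Lgals9, and both lost the threshold without line 18 (-0.64 and -0.87). Gchfr also lost it without line 24 (-0.68), and Lgals9 without line 19 (-0.64).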

How the results depend on the processing

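Of the values of the genes in the text, 4547 kept their direction and their side of the threshold under an alternative, 185 lost the threshold and 6 reversed. The reversals were Hspa5 (0.0872) and Hmox1 (0.12) in line 24 alone, Tagln (-0.87) without cells holding stromal markers, and the KO minus control difference without line 19 for Lpl (0.52), Sdf2l1 (0.26) and Hspa5 (0.21); the cause was not tested. The gate on stromal markers, the left-out lines and the left-out thin sums were chosen after seeing the data. The count of genes changed from day 0 was 4383 with sums thinned to the smallest, and 7001 to 7839 with 1 sum left out. The trend count was 820 by DESeq2, 188 with a Ptprc gate alone, 1911 for day 16 against day 6, 47 in line 19 alone, 121 in line 24 alone, 7 in the mixed libraries, 779 with no filter, 91 thinned and 31 to 878 with 1 sum left out. With the hashtag letter as a replicate block it was 154, and the step from day 0 gave 7756. The difference between lines gave 743 to 2226 genes for the step, and for the trend 736 with no filter and 0 to 297 with 1 sum left out. KO minus control gave 3601 genes thinned, 2924 without line 15 and 4990 to 6124 with 1 sum left out. Its trend gave 154 without line 15, 6 without line 18, 45 without line 24 and 77 to 328 with 1 sum left out. Depth limits day 0, where 1 of the sums of line 19 held 137 cells, and the trend, where line 24 had a single day 6 sum of 410 cells.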
